A study of Mus musculus with 6 samples.

Results

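The imprinted genes considered here are 33 genes named by symbol, each of which is transcribed from the maternal or the paternal chromosome alone, or mostly so, in at least some mouse tissues. All 33 symbols were found among the 56691 gene identifiers of the count tables, and all 33 had enough reads to be tested, out of 15673 genes tested in all. The libraries came from microdissected palatal shelves of C57BL/6J mouse embryos at embryonic day 14.0, with 3 libraries from the anterior palate and 3 from the posterior palate. No treatment or altered allele was used, and both regions share strain and stage. The labels do not say whether a library came from 1 embryo or from several pooled embryos, nor whether replicates came from separate litters, so p-values measure only the spread between these libraries.

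Genomic imprinting is the marking of a chromosome region, in the egg or the sperm, by DNA methylation that the embryo keeps through later cell divisions. Imprinted genes lie in clusters in which a shared control region sets which parental copy of each gene is read, and many clusters pair a growth-promoting protein gene with a long noncoding RNA read from the other parental copy. Many imprinted genes are read strongly in embryonic tissues and placenta and act on growth, on mesenchymal and muscle precursors and on energy use. The counts do not separate the parental copies, and the strain is inbred. The parental allele given for each gene below is therefore background knowledge and not a measurement of these libraries.

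Between the regions, 6 of the 33 imprinted genes passed edgeR's quasi-likelihood test at an adjusted p-value below 0.05, or 18.2%, where 7.46% of all genes tested passed. Dlk1, Rtl1 and Rian of the Dlk1-Dio3 cluster and Magel2 and Ndn of the Snrpn cluster were called higher in the posterior palate. In that direction 4.87% of all genes tested were called. Asb4 of the Peg10-Sgce cluster was called higher in the anterior palate, as were 2.59% of all genes tested. Log2 fold changes are posterior over anterior throughout, on CPM, read counts scaled to a common library size by the TMM method. They were positive for 28 members and negative for 5, with a median of 0.29 over the members and of -0.0040 over all genes tested. The 3 anterior and 3 posterior values did not overlap for 13 of the 33 members, against 28% of all genes tested.

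**Figure D1:**
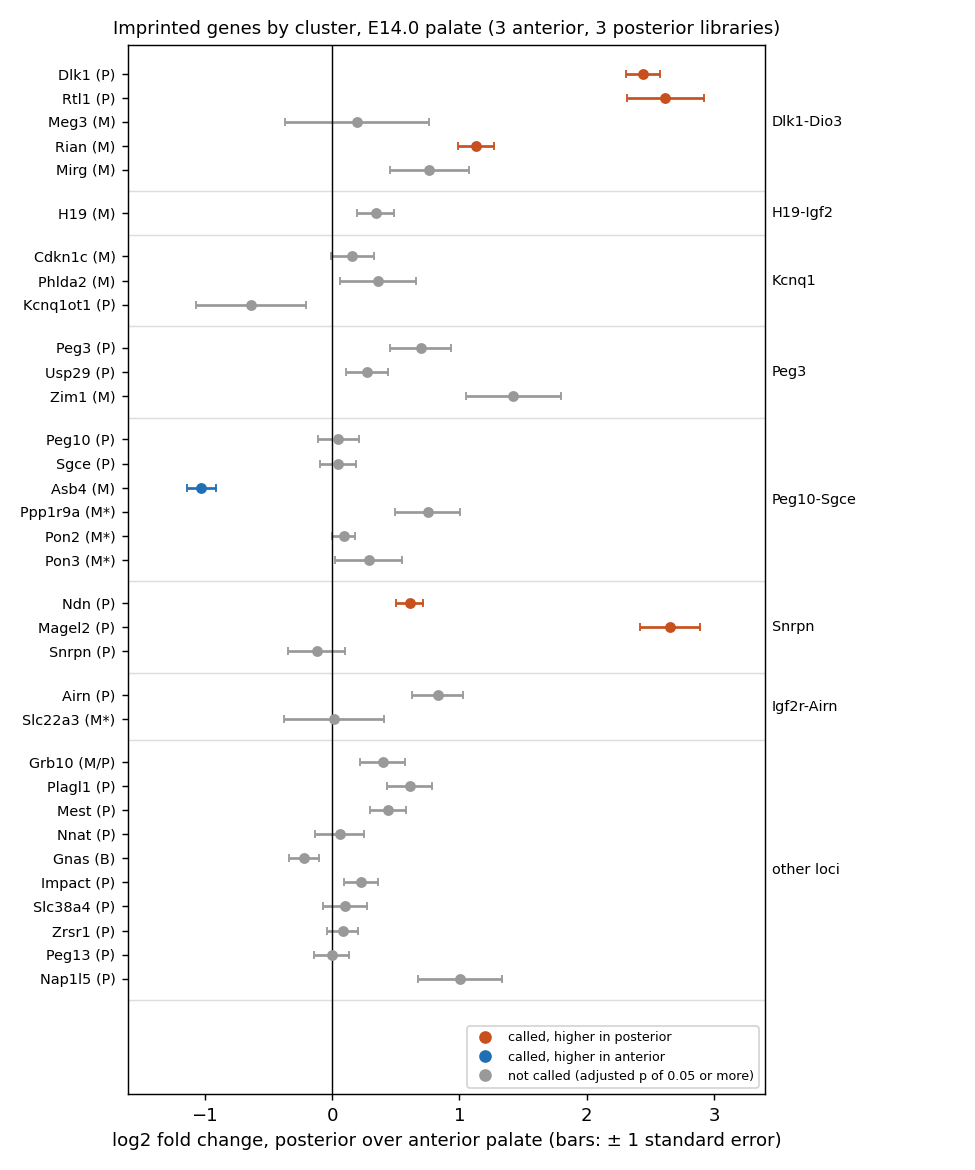
Log2 fold change (x axis, posterior over anterior palate) of each of the 33 imprinted genes, grouped by cluster, with bars of 1 standard error from edgeR's fit of 3 anterior and 3 posterior libraries. Letters give the allele known to be expressed: P paternal, M maternal, M* maternal in extraembryonic tissue, M/P maternal in most tissues and paternal in neurons, B both alleles in most tissues. The 5 genes called higher in the posterior palate lie between 0.61 and 2.65, Asb4 lies at -1.02, and Meg3 has the widest bar, 0.56.

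The library totals ranged from 11378736 to 15172733 counts, and a count of 0 allows up to 0.198 to 0.264 CPM (3 counts, counting error only). The regional markers followed the labels, with Shox2 at 386 ± 31.7 CPM in the anterior and 11.7 ± 6.09 CPM in the posterior palate (SD, n = 3 each) and Meox2 at 7.83 ± 0.958 and 192 ± 47.4 CPM. Posterior replicates 2 and 3 stood apart from the other 4 libraries, with 6.12% and 5.94% of reads mapping to several places against 8.45% to 8.77%, and with 0.973% and 1.14% of counts on mitochondrial transcripts against 2.70% to 2.97%. Both are posterior, so this difference and the region cannot be told apart within them. Beside many results the value is also given from a fit that sets these 2 libraries apart (the library-group term). In it posterior replicate 1 alone stands against the anterior libraries, and the spread comes from the 3 anterior libraries and from posterior replicates 2 and 3, so that posterior replicate 1 is assumed to vary like them. The marker genes of skeletal muscle also moved with the region: all 10 were called higher in the posterior palate, and their summed level was 12.2 to 17.3 CPM in the anterior libraries and 826.9, 635.0 and 1148 CPM in posterior replicates 1, 2 and 3. Of 4 cartilage markers 3 were tested and 1 was called, Col2a1, with 85.3 ± 16.9 CPM in the anterior and 507 ± 95.2 CPM in the posterior palate. Acan (log2 fold change 1.75, adjusted p = 0.0658) and Sox9 (0.35, adjusted p = 0.470) were not called, and the summed level of the list was 126 to 167 CPM in the anterior and 507 to 630.4 CPM in the posterior libraries. The part of these cells in the differences below was not tested. In bulk tissue, a change in the number of cells of a type cannot be told apart from a change in RNA per cell.

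The Dlk1-Dio3 cluster lies on mouse chromosome 12 and held 3 of the 6 called genes. Its paternal copy gives the protein genes Dlk1 and Rtl1, and its maternal copy gives the noncoding RNAs Meg3, Rian and Mirg. The median log2 fold change of the 5 genes was 1.13. All 5 were positive, but that of Meg3 turned negative with limma-voom, with the replicate block and without posterior replicate 1. Dlk1 and Rtl1, on the paternal side, changed by more than 2 on the log2 scale, and Rian, on the maternal side, by 1.13.

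Dlk1 encodes a transmembrane protein with EGF repeats that resembles Notch ligands and restrains the maturation of fat cell precursors. It is annotated at chr12:109452823-109463336 on the plus strand (GENCODE M21, GRCm38). The window around its start, from 250 bases before to 50 after it, is shown because this gene had the largest difference in CPM among the called members. The window is chr12:109452573-109452872, plus strand, from RefSeq (GRCm38.p6), and its 9 CpG dinucleotides are in capitals.
Dlk1 promoter: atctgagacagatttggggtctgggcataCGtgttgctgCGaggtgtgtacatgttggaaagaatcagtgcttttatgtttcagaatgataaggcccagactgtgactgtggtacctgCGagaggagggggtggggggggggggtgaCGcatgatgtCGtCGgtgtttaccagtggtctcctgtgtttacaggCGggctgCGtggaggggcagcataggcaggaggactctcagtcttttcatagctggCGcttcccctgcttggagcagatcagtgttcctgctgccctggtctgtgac
Dlk1 stood at 177, 167 and 196 CPM in anterior replicates 1, 2 and 3 and at 929, 879.9 and 1124 CPM in posterior replicates 1, 2 and 3. Every posterior library lay far above every anterior one, and the posterior libraries did not split by library group. The mean rose from 180.1 ± 14.8 to 978 ± 129 CPM (SD, n = 3 each). The log2 fold change was 2.44 (standard error (SE) 0.14, adjusted p = 0.000157), a 5.43-fold difference, and it was 2.37 with the library-group term. Under the 16 alternatives its adjusted p-value did not exceed 0.00304.

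Rtl1, a gene derived from a retrotransposon that the placenta and developing muscle need, was read at a far lower level. Its strand carried 15, 17 and 29 counts in the anterior libraries and 135, 129 and 150 counts in the posterior libraries. In CPM these were 1.14, 1.24 and 2.51 against 10.1, 9.32 and 10.3, so that the regions were well apart and the posterior libraries were close together. The log2 fold change was 2.62 (SE 0.30, adjusted p = 0.00272), and it was 2.65 with the library-group term.

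At Rtl1 the other strand is known to be read as well, from the maternal chromosome, into a transcript that holds microRNAs. RefSeq places 13 mature microRNAs within the Rtl1 gene (chr12:109589193-109600330, minus strand). Of these, 11 lie on the plus strand, and each is a perfect complement of the annotated Rtl1 transcript, while both arms of miR-3071 lie on the Rtl1 strand. No pair of the 13 shares a seed. An arm from each of 5 of the hairpins is given, because these are known products of the strand opposite Rtl1. Capitals mark the seed, bases 2 to 8.
miR-431-5p: uGUCUUGCaggccgucaugca
miR-433-3p: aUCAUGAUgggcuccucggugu
miR-127-3p: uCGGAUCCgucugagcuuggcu
miR-434-3p: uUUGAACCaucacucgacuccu
miR-136-5p: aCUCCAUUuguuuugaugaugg
Long-RNA libraries do not measure mature microRNAs, but reads on the strand opposite Rtl1 were counted. They numbered 46, 47 and 58 in the anterior libraries and 87, 54 and 65 in the posterior libraries. As a share of the counts on the Rtl1 strand they were 307%, 277% and 200% in the anterior and 64.4%, 41.9% and 43.3% in the posterior libraries. In every anterior library the opposite strand had more reads than the Rtl1 strand, and in every posterior library it had fewer. In CPM the opposite strand had 3.98 ± 0.904 in the anterior palate against 4.96 ± 1.38 in the posterior palate (SD, n = 3 each), values that overlapped (two-sided exact permutation test, p = 0.5, where the smallest p this design allows is 0.1). For the other 32 members the share on the opposite strand was at most 15% in any library, and over whole libraries it was 4.33% to 5.28%. Counting both strands together gave Rtl1 a log2 fold change of 1.31 (adjusted p = 0.020), less than on its own strand alone. The adjusted p-value of Rtl1 did not exceed 0.0202 under any of the 16 alternatives.

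**Figure D2:**
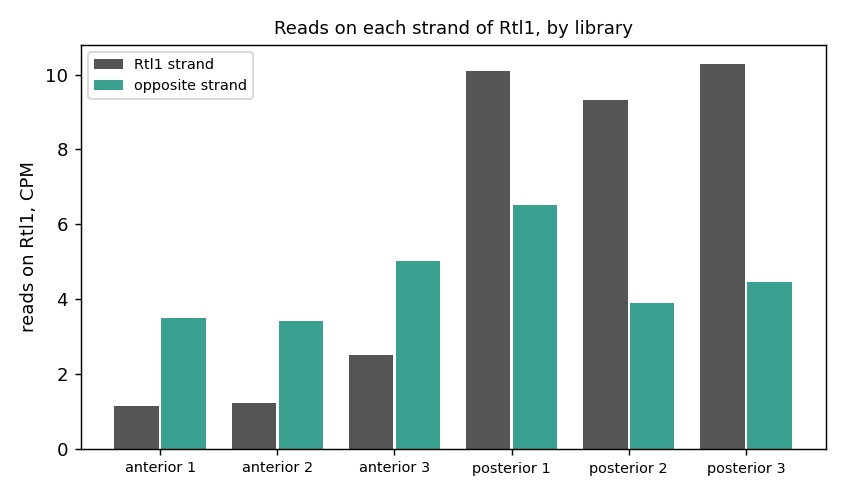
Reads on the Rtl1 strand and on the opposite strand of the same exons (y axis, CPM) in each of the 3 anterior and 3 posterior libraries (x axis), with 1 bar per library and strand. The Rtl1 strand goes from 1.14 to 2.51 CPM in the anterior to 9.32 to 10.3 CPM in the posterior libraries, while the opposite strand stays between 3.42 and 6.51 CPM.

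Rian, a maternal transcript that hosts small nucleolar RNAs, was higher in the posterior palate. It had 153, 154 and 167 CPM in the anterior libraries and 294, 328 and 417 CPM in the posterior libraries, with no overlap. Its log2 fold change was 1.13 (SE 0.14, adjusted p = 0.00374), and 0.90 with the library-group term. Mirg, the transcript that hosts the distal microRNA cluster, had 6.60, 6.83 and 9.60 CPM in the anterior and 18.3, 7.95 and 12.8 CPM in the posterior libraries. Its posterior replicate 2 lay within the anterior range, and it was not called (0.76, adjusted p = 0.181). With the library-group term it was called, at 1.26 (adjusted p = 0.0357), where the 16 alternatives gave 0.0140 to 0.432.

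Meg3, the noncoding RNA at the head of the maternal transcripts, took a different course in each group of posterior libraries. It had 366, 401 and 418 CPM in the anterior libraries, 943 CPM in posterior replicate 1, and 190.0 and 223 CPM in posterior replicates 2 and 3. Posterior replicate 1 lay above all anterior libraries, and posterior replicates 2 and 3 lay below them all. The pooled log2 fold change of 0.19 (SE 0.56, adjusted p = 0.841) therefore describes no library. It was 1.26 with the library-group term (adjusted p = 0.000359) and -0.94 without posterior replicate 1 (adjusted p = 0.000143), and over the 16 alternatives the adjusted p-value ranged up to 0.923.

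The split was within the cluster too. The ratio of Meg3 to Rian in the same library was 2.39, 2.61 and 2.51 in the anterior libraries and 3.21 in posterior replicate 1, but 0.579 and 0.534 in posterior replicates 2 and 3. Both RNAs are read from the same chromosome copy, in the same direction, and Rian was high in all 3 posterior libraries. The ratio of Dlk1 to Meg3 was 0.485, 0.416 and 0.469 in the anterior libraries, 0.985 in posterior replicate 1, and 4.63 and 5.05 in posterior replicates 2 and 3. By contrast, Dlk1 to Rtl1, both paternal, stayed between 78.2 and 155.6 in all 6 libraries.

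**Figure D3:**
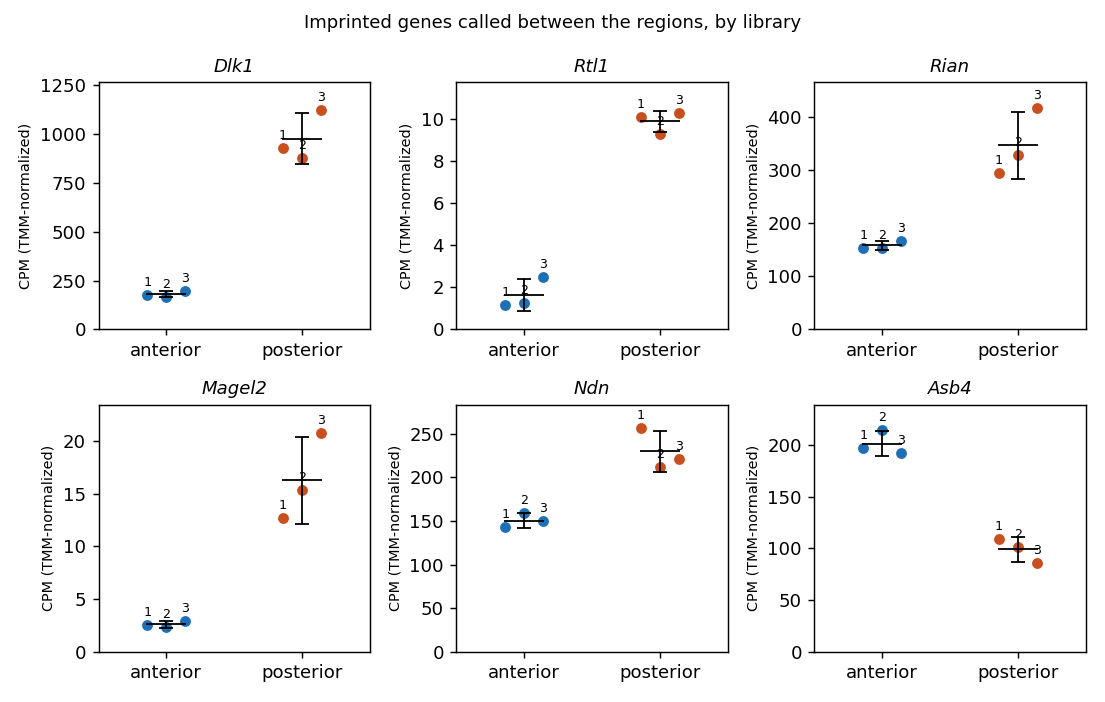
Level (y axis, TMM-normalized CPM, from 0) of the 6 imprinted genes called between the regions, in each anterior and posterior library, with replicate numbers beside the points. Bars give the mean and SD of 3 libraries. In each panel the regions do not overlap, and only Asb4 is lower in the posterior palate.

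The Snrpn cluster on chromosome 7, which corresponds to the human Prader-Willi region, gave the other 2 genes called higher in the posterior palate. Ndn encodes necdin and Magel2 a relative of it, both of the MAGE family, and both are read from the paternal chromosome alone. Ndn restrains cell division and is expressed in neurons and muscle precursors, and Magel2 acts in ubiquitin ligation and protein recycling. Their start windows are shown for a comparison, since these neighbours both rose. They are chr7:62348027-62348326 for Ndn and chr7:62376729-62377028 for Magel2, both on the plus strand (RefSeq, GRCm38.p6), with CpG dinucleotides in capitals, 11 in Ndn and 10 in Magel2.
Ndn promoter: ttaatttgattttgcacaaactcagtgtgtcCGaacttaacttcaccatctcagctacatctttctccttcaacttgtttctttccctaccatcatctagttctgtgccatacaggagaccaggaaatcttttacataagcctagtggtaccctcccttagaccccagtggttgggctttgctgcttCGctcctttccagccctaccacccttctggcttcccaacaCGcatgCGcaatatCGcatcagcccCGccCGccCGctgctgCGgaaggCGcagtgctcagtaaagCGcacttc
Magel2 promoter: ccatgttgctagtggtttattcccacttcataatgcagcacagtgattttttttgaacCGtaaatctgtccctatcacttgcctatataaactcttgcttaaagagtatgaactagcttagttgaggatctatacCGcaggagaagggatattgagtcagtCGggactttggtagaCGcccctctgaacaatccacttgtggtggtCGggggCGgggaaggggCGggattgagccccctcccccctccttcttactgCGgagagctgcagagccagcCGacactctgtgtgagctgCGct
Magel2 had 2.50, 2.33 and 2.94 CPM in the anterior libraries and 12.7, 15.4 and 20.8 CPM in the posterior libraries. Its log2 fold change was 2.65 (SE 0.23, adjusted p = 0.000807), a 6.28-fold difference and, with that of Rtl1, at the top of the 33. It was 2.29 with the library-group term, and it was called under all 16 alternatives. Ndn had 143, 159 and 149.7 CPM in the anterior and 257, 212 and 221 CPM in the posterior libraries. The regions did not overlap for Ndn, but the difference was much smaller than for Magel2, at 0.61 (SE 0.11, adjusted p = 0.0145). Its call is the least stable of the 6: the adjusted p-value was 0.0655 to 0.0924 without any 1 of the anterior replicates, and 0.056 with the replicate number as a block.

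The ratio of Magel2 to Ndn in CPM was 0.0176, 0.0146 and 0.0197 in the anterior libraries and 0.0493, 0.0727 and 0.0940 in the posterior libraries, with no overlap. Per kb of exon, the scale on which genes can be compared, the mean level of Ndn was 40.7 CPM anteriorly and 62.2 posteriorly, and that of Magel2 was 0.559 and 3.51. Snrpn, the splicing protein gene that gives the cluster its name, was not called. It had 9.64, 7.71 and 11.6 CPM in the anterior and 8.38, 11.1 and 7.13 CPM in the posterior libraries (log2 fold change -0.12, SE 0.22, adjusted p = 0.747). This level is a lower limit in both regions, because 27.3% of its exon length is shared on the same strand with Gm38393 and 10% with Snurf, and reads that fit several genes are not counted.

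The Peg10-Sgce cluster on chromosome 6 held the only member called higher in the anterior palate. Asb4, a maternal gene for an adaptor of a ubiquitin ligase with ankyrin repeats and a SOCS box, had 197, 215 and 192.5 CPM in the anterior libraries and 109.6, 101.5 and 86.3 CPM in the posterior libraries. The regions were apart, and Asb4 was lower in all 3 posterior libraries than in any anterior one. The log2 fold change was -1.02 (SE 0.11, adjusted p = 0.00235), a 2.03-fold higher level in the anterior palate. It was -0.88 with the library-group term, and the call held under all 16 alternatives.

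Of the neighbours of Asb4, edgeR called none, and DESeq2 and an unadjusted p-value below 0.05 each gave 1, Ppp1r9a. Peg10, a paternal gene derived from a retrotransposon, had 286 to 382 CPM in the anterior and 277 to 382 CPM in the posterior libraries (log2 fold change 0.05, SE 0.16, adjusted p = 0.863). Sgce, the paternal gene for epsilon-sarcoglycan, had 50.004 to 59.0 and 47.1 to 66.3 CPM (0.05, SE 0.14, adjusted p = 0.849). Peg10 and Sgce start next to each other on opposite strands, and their ratio was between 5.63 and 6.55 in all 6 libraries. The ratio of Asb4 to Peg10 was 0.504 to 0.689 in the anterior and 0.231 to 0.396 in the posterior libraries.

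Ppp1r9a, Pon2 and Pon3 in the same cluster are maternally biased in extraembryonic tissue. Ppp1r9a encodes neurabin, an actin-binding scaffold, and had 33.1 to 34.3 CPM in the anterior libraries. Its posterior values were 33.2 CPM for replicate 1 and 69.0 and 67.1 CPM for replicates 2 and 3, so that only the latter 2 were above the anterior range (0.75, SE 0.26, adjusted p = 0.130, and -0.016 with the library-group term). The lactone-cleaving paraoxonase Pon2 had 39.3 to 44.7 CPM over all 6 libraries and Pon3 had 5.39 to 10.4 CPM. Neither passed under edgeR, with log2 fold changes of 0.09 and 0.29 (adjusted p = 0.535 and 0.501).

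H19 was by far the most abundant member. It is a maternal noncoding RNA on chromosome 7 whose first exon holds the miR-675 hairpin, and it shares enhancers with Igf2, the paternal gene for insulin-like growth factor 2. The mature arms of this hairpin are given below because they are the known small RNA product of the member with most reads, with the seed in capitals.
miR-675-5p: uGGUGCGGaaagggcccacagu
miR-675-3p: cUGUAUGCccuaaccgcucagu
H19 had 5811, 4878 and 4901 CPM in the anterior libraries and 7204, 6063 and 6490.1 CPM in the posterior libraries. Every posterior value was above every anterior one, but the gap was small beside the spread, and H19 was not called (log2 fold change 0.34, SE 0.15, adjusted p = 0.199). With the library-group term it was 0.47 (adjusted p = 0.0454), and the adjusted p-value was 0.0441 to 0.50 over the 16 alternatives. It was the third to sixth gene of all by counts in each library, and it alone held 0.491% to 0.592% of counts in the anterior and 0.603% to 0.715% in the posterior libraries. All 33 members together held 1.41% to 1.55% and 1.75% to 1.85%, and without H19 they held 0.908% to 0.988% and 1.14% to 1.17%.

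Igf2, which is not among the 33, was called higher in the posterior palate. It had 125, 109.9 and 109.1 CPM in the anterior and 153, 222 and 216 CPM in the posterior libraries (log2 fold change 0.78, SE 0.15, adjusted p = 0.0237, and 0.42 with the library-group term). The call held under 10 of the 16 alternatives, and was lost with the replicate block (adjusted p = 0.0622) and without any 1 library other than posterior replicate 1 (adjusted p up to 0.119). The ratio of H19 to Igf2 was 44.4 to 47.0 in the anterior libraries and posterior replicate 1 and 27.3 and 30.1 in posterior replicates 2 and 3.

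The Kcnq1 cluster lies next to H19 on chromosome 7. Cdkn1c, which encodes the cell cycle inhibitor p57 and whose loss causes cleft palate in mice, was the second most abundant member per kb of exon, with 729.7 CPM per kb anteriorly and 814 posteriorly. It had 1607, 1654 and 1203 CPM in the anterior and 1931, 1487 and 1561 CPM in the posterior libraries. The regions overlapped (log2 fold change 0.16, SE 0.17, adjusted p = 0.571). Phlda2, a maternal gene that limits placental growth, was read at a low level, with 17 to 36 counts in a library. It had 1.24 to 1.75 and 1.65 to 2.60 CPM (0.36, adjusted p = 0.465).

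Kcnq1ot1, the paternal noncoding RNA that silences the neighbouring genes in cis, split by library group as Meg3 did. It had 221, 217 and 189 CPM in the anterior libraries, 247 CPM in posterior replicate 1, and 72.1 and 84.7 CPM in posterior replicates 2 and 3. The log2 fold change was -0.64 (SE 0.43, adjusted p = 0.381). It was 0.24 with the library-group term (adjusted p = 0.295) and -1.42 without posterior replicate 1 (adjusted p = 3.37e-05, the lowest of the 16 alternatives, where the highest was 0.717). Its ratio to Cdkn1c was 0.128 to 0.157 in the anterior libraries and posterior replicate 1 and 0.0485 and 0.0543 in the other 2.

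In the Peg3 cluster, at the other end of chromosome 7, all 3 genes were at a higher mean in the posterior palate, and none was called by edgeR. Zim1, a maternal zinc finger gene, had 36.5, 38.02 and 37.98 CPM in the anterior libraries, 43.5 CPM in posterior replicate 1 and 129.5 and 129 CPM in posterior replicates 2 and 3. The regions did not overlap, but most of the difference came with posterior replicates 2 and 3 (log2 fold change 1.42, SE 0.37, adjusted p = 0.0647, and 0.21 with the library-group term). Peg3, a paternal zinc finger gene that acts on growth and maternal behaviour, had 589, 579.6 and 524 CPM in the anterior libraries and 569.8, 1083 and 1092 CPM in the posterior libraries (0.70, SE 0.24, adjusted p = 0.131, and 0.014 with the library-group term). Usp29, a paternal gene for a ubiquitin-specific protease, had 17.2 to 19.6 and 17.8 to 26.7 CPM (0.28, adjusted p = 0.323, and -0.066 with the library-group term). At an unadjusted p-value below 0.05 edgeR had 2 of the 3, Peg3 and Zim1, DESeq2 called the same 2, and limma-voom called 0.

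At the Igf2r-Airn cluster on chromosome 17, the paternal noncoding RNA Airn, which silences Igf2r in cis, had 11.5, 10.8 and 10.8 CPM in the anterior and 13.9, 21.7 and 23.3 CPM in the posterior libraries. The regions did not overlap, and the adjusted p-value fell just past the threshold (log2 fold change 0.83, SE 0.20, adjusted p = 0.0512). DESeq2 called it (adjusted p = 0.00729), as did the fits with no low-count filter (0.0114) and without posterior replicate 1. Its log2 fold change was 0.33 with the library-group term, and over the 16 alternatives the adjusted p-value was 0.00025 to 0.279. Igf2r had 193, 178 and 193 CPM in the anterior libraries and 209, 598 and 711 CPM in posterior replicates 1, 2 and 3. The regions did not overlap for it (log2 fold change 1.43, and 0.15 with the library-group term, edgeR adjusted p = 0.0744, DESeq2 adjusted p = 0.00107). The ratio of Airn to Igf2r was 0.056 to 0.0666 in the anterior libraries and posterior replicate 1. In posterior replicates 2 and 3 it was 0.036 and 0.0328. Silencing of Igf2r by Airn was not tested. Slc22a3, an organic cation transporter gene silenced by Airn in placenta, was the lowest member, with 0.606 to 1.29 and 0.686 to 1.05 CPM (0.02, SE 0.39, adjusted p = 0.983).

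Of the 10 members at other loci, edgeR called none. At an unadjusted p-value below 0.05 there were 3, Plagl1, Mest and Nap1l5, and DESeq2 called 2 of these, Plagl1 and Mest. Plagl1, a paternal gene for a zinc finger transcription factor that restrains cell division, had 388, 395 and 338 CPM in the anterior and 422, 633 and 654 CPM in the posterior libraries (log2 fold change 0.61, SE 0.18, adjusted p = 0.0871, and 0.18 with the library-group term). Mest, a paternal gene for a hydrolase-like protein of mesoderm, had 1281, 1353 and 1172 CPM in the anterior and 1464, 1769 and 1928 CPM in the posterior libraries (0.44, SE 0.14, adjusted p = 0.108, and 0.21 with the term). Nap1l5, a small paternal gene within an intron of Herc3, had 1.44, 2.33 and 1.64 against 2.84, 5.13 and 2.95 CPM (1.01, SE 0.33, adjusted p = 0.119, and 0.65 with the term). For each of these 3 genes the regions did not overlap, and posterior replicate 1 was the posterior library nearest to the anterior ones.

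Grb10, an adaptor that restrains insulin and IGF signalling, is maternal in most tissues and paternal in neurons. It had 1054 to 1084 CPM in the anterior libraries, 1045 CPM in posterior replicate 1, and 1562 and 1627 CPM in posterior replicates 2 and 3 (log2 fold change 0.40, SE 0.18, adjusted p = 0.208, and -0.035 with the library-group term). Gnas, which encodes the stimulatory G protein alpha subunit and is read from both alleles in most tissues, had 2232, 2309 and 2182 CPM in the anterior and 2083, 1878 and 1805 CPM in the posterior libraries. It was lower in each posterior library than in any anterior one, by little, and was not called (-0.22, SE 0.12, adjusted p = 0.274, and -0.11 with the term). Its direction depends on the counting: without regard to strand the log2 fold change was 0.55 (adjusted p = 0.147), and antisense genes, Nespas among them, lie across 8.83% and 13.1% of its exon length.

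The other 5 members at these loci are paternal and were not called. The neuronal proteolipid gene Nnat had 317 to 360 CPM in the anterior and 244 to 415 CPM in the posterior libraries, and the amino acid transporter gene Slc38a4 had 88.9 to 102 and 79.2 to 129 CPM. Impact, a regulator of translation under stress, had 59.0 to 63.4 and 59.0 to 83.5 CPM. The noncoding RNA Peg13 had 34.2 to 39.0 and 31.5 to 43.0 CPM, and the splicing factor gene Zrsr1 had 12.3 to 13.9 and 13.3 to 14.4 CPM. Their log2 fold changes lay between -0.0021 and 0.23, the regions overlapped for all 5, and their adjusted p-values were 0.319 or more.

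**Figure D4:**
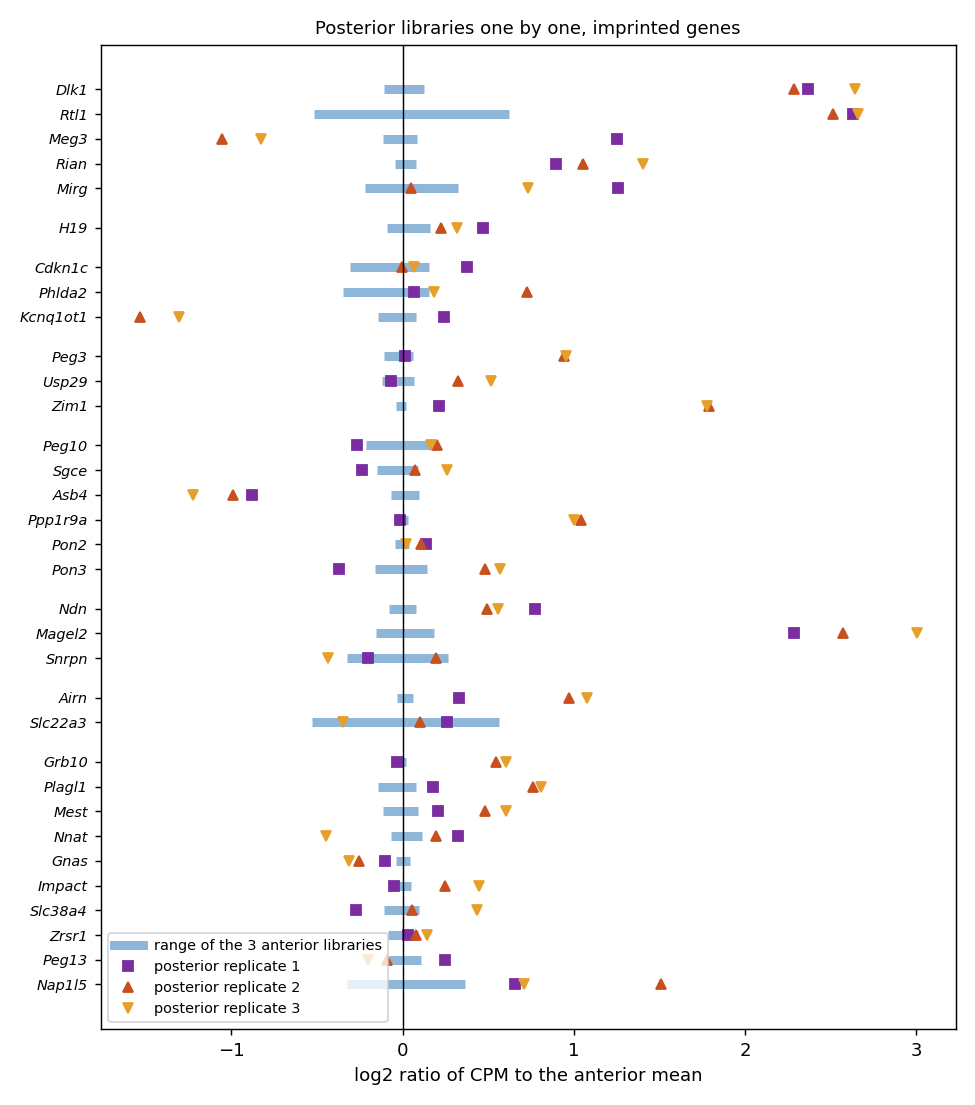
Log2 ratio of CPM to the anterior mean (x axis) for each imprinted gene in each posterior library, beside the range of the 3 anterior libraries (blue bar). Dlk1, Rtl1, Rian, Magel2, Ndn and Asb4 have all 3 posterior points on 1 side and apart from the bar, while Meg3 has posterior replicate 1 at 1.26 and replicates 2 and 3 at -1.06 and -0.83.

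Posterior replicates 2 and 3 both lay above the other 4 libraries for 14 of the 33 members (42.4%), where they did so for 28.3% of all genes tested. They both lay below for 5 members (15.2%), Meg3, Kcnq1ot1, Asb4, Gnas and Peg13, where 26.8% of all genes did. The other 14 members had no such split. Of the 6 called genes, Rian and Magel2 were among the 14 above and Asb4 among the 5 below, and for each of them posterior replicate 1 stood on the same side of the anterior libraries. With the library-group term 9 members were called, 8 of them higher in the posterior palate, where 7.61% of all genes tested were called and 4.4% were higher in the posterior palate. These were the 6 named above and also Meg3, Mirg and H19. All 5 genes of the Dlk1-Dio3 cluster were then higher in the posterior palate, a comparison that rests on posterior replicate 1 alone. Without posterior replicate 1, 21 members were called, 17 of them higher in the posterior palate, and all 6 were among them. In that fit 46.6% of all genes tested were called and 25.5% were higher in the posterior palate, so that a call there says little of the members.

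By the allele known to be expressed, 4 of 19 paternal genes were called, all higher in the posterior palate (Dlk1, Rtl1, Ndn and Magel2), with a median log2 fold change of 0.28 over the 19, beside 7.46% of all genes tested called in either direction and 4.87% higher in the posterior palate. Of the 8 maternal genes, 1 was called in each direction (Rian and Asb4), with a median of 0.35. None of the 4 genes known as maternal in extraembryonic tissue was called by edgeR, 1 had an unadjusted p-value below 0.05 and was called by DESeq2 (Ppp1r9a), and limma-voom called 0. Among products, 5 of 26 protein genes (19.2%) and 1 of 7 noncoding RNAs (14.3%) were called, beside the same 7.46%. These groups hold few genes, and differences between them were not tested.

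Per kb of exon the members spanned a wide range of levels. In the anterior palate H19 had 2112 CPM per kb, Cdkn1c 729.7, Mest 322, Gnas 200.3, Nnat 182 and Grb10 118, and the next, Asb4, had 51.3. The lowest were Slc22a3 at 0.194, Rtl1 at 0.256 and Magel2 at 0.559. In the posterior palate Dlk1 rose from 31.8 to 173 CPM per kb, next to Nnat at 189 and Gnas at 172, while Asb4 fell to 25.2. The exon lengths are those of GENCODE M21, which may differ from the annotation behind the counts.

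**Figure D5:**
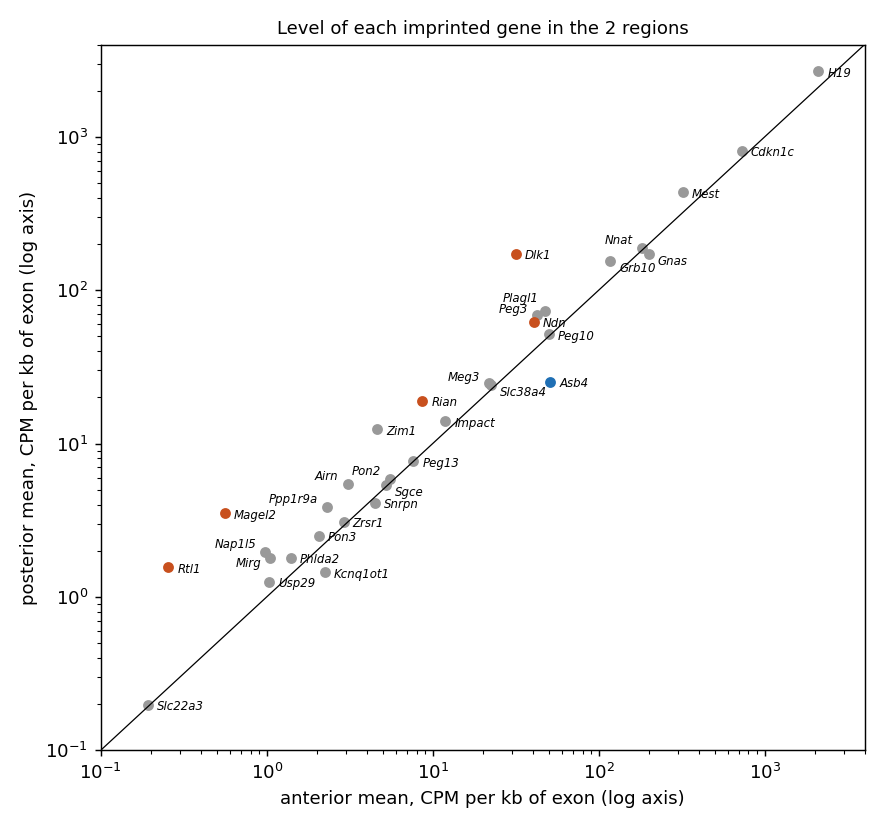
Mean level of each imprinted gene in the anterior palate (x axis) and the posterior palate (y axis) in CPM per kb of exon, both on log axes, with the line of equal levels. Orange points were called higher in the posterior palate, the blue point higher in the anterior palate, and grey points were not called. Dlk1, Rtl1 and Magel2 lie farthest above the line and Asb4 below it.

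Start windows of 300 bases were taken from the RefSeq table, with chromosome 18, where Impact lies, left out and repeated windows counted once. They covered 26 of the 33 members, with 40 windows in all. The median CpG number of these 40 was 10, against 7 over the 32851 windows kept. The hexamer TGCCGC, bound by the imprint-keeping factor ZFP57 when methylated, was searched on both strands. It was found in 10 of the 40 windows (25%), which belong to 9 genes, against 11.6% of all windows. Some members have several windows that overlap, and a match says only that these letters are present. The called genes had 6 windows, from 5 genes, as Rtl1 had none, and the hexamer was in none of them. So few windows cannot be set against the 11.6% of all windows.

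Other genes of the same clusters, and other imprinted genes, were looked at from a list of 49, of which 41 had enough reads to be tested. Of these, edgeR called 4 (9.76%), all higher in the posterior palate: Igf2, Atp10a, Ddc and Zdbf2. Of all genes tested, it called 7.46% in either direction and 4.87% higher in the posterior palate. DESeq2 called 7 of the 41, these 4 with Igf2r, Begain and Ago2, and 1978 of all 15673 genes tested. With limma-voom 4 were called, and 15 had an unadjusted edgeR p-value below 0.05. Begain, on chromosome 12 as Dlk1 is, had 7.59, 7.13 and 16.4 against 21.4, 26.4 and 27.6 CPM (1.29, edgeR adjusted p = 0.0519). Ddc, the gene for aromatic L-amino acid decarboxylase, next to Grb10, had 2.05, 2.40 and 2.60 CPM in the anterior and 7.86, 9.83 and 6.65 CPM in the posterior libraries (log2 fold change 1.79, SE 0.22, adjusted p = 0.00373), and it was called under all 16 alternatives. Atp10a, a lipid flippase gene near the Snrpn cluster, had 7.89, 6.98 and 8.91 against 13.3, 16.4 and 17.2 CPM (0.98, adjusted p = 0.0123), and its call was lost under 4 of the 16 alternatives (adjusted p = 0.0514 to 0.0706), among them leaving out anterior replicate 1 or 2 or posterior replicate 2. Zdbf2, a paternal zinc finger gene, had 28.8, 29.3 and 27.5 against 36.8, 73.5 and 71.7 CPM (1.09, adjusted p = 0.0416, and 0.36 with the library-group term), with posterior replicate 1 close to the anterior libraries. Its call was lost under 8 of the 16 alternatives (adjusted p = 0.0567 to 0.148), with limma-voom, with the replicate block and without any 1 library other than posterior replicate 1 among them. The median log2 fold change over the 41 was 0.23, and 28 of them were positive. Ins2, Snurf, Zim2 and Zfp264 were listed at 0 in every library, and Snurf lies within Snrpn exons, where shared reads are not counted.

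Factors that keep, read or erase imprints were a list of 16, of which 14 were tested. EdgeR called 0 of them, 4 had an unadjusted p-value below 0.05 (Zfp445, Uhrf1, Tet1 and Tet2), DESeq2 called 1 (Tet2) and limma-voom called 0. Zfp57, the zinc finger protein that guards methylated imprints, had 26.2 to 29.4 CPM in the anterior and 28.1 to 37.1 CPM in the posterior libraries (0.21, adjusted p = 0.339). Its partner Trim28 had 556 to 602 and 476 to 593 CPM (-0.15, adjusted p = 0.427), and Dnmt1, the maintenance methyltransferase, had 147 to 175 and 147 to 232 CPM (0.36, adjusted p = 0.261).

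Other cell types were followed by their markers. The summed level of 5 neuronal markers was 33.6 to 39.6 CPM in the anterior libraries and 40.05, 268 and 16.8 CPM in posterior replicates 1, 2 and 3, so that posterior replicate 2 stood out. Nnat and Snrpn, which neurons read strongly, had 379.7 and 11.1 CPM in that library, within their range in the others. Nap1l5 was highest in that library, at 5.13 CPM against 1.44 to 2.95 CPM in the others. The part of neurons in the levels of the members was not tested. The osteoblast markers went the other way from muscle, with a summed level of 1661 to 3086 CPM in the anterior libraries and 137, 315 and 1519 CPM in posterior replicates 1, 2 and 3. The regions did not overlap for the 3 of its 4 genes that were tested, Runx2, Sp7 and Ibsp, of which edgeR called 0, 2 had an unadjusted p-value below 0.05 (Runx2 and Sp7), DESeq2 called the same 2, limma-voom called 0 and the library-group term 3. The part of these cells in the differences above, that of Asb4 included, was not tested. The 6 epithelial markers summed to 1125 to 1252 and 794 to 1362 CPM, with Trp63 called higher in the anterior palate (log2 fold change -0.65, adjusted p = 0.00948). DESeq2 called 2 of the 6, Krt5 and Trp63, and the same 2 had an unadjusted edgeR p-value below 0.05. For Krt5 the regions did not overlap (-0.93, edgeR adjusted p = 0.0616). Krt14 was the only 1 of the 6 with a positive value (0.12, edgeR adjusted p = 0.681). The 6 endothelial markers summed to 408 to 436 and 362 to 584 CPM. The placental genes Prl3d1 and Tpbpa had no read in any library. The Trp63 call was lost without anterior replicate 1 (adjusted p = 0.0558) or anterior replicate 3 (0.0537). Of the 4 mesenchymal markers edgeR called 3: Prrx1 was lower in the posterior palate (log2 fold change -1.34, adjusted p = 0.000604), and Twist1 (0.74, adjusted p = 0.0129) and Pdgfra (1.06, adjusted p = 0.0406) were higher. For Osr2 the regions overlapped (-0.43, adjusted p = 0.304). Prrx1 was called under all 16 alternatives, and the Twist1 call was lost without anterior replicate 1 (adjusted p = 0.0801) or anterior replicate 2 (0.0787). The Pdgfra call was lost under 7 of the 16 (adjusted p = 0.054 to 0.165), namely limma-voom, the replicate block and leaving out any 1 library other than posterior replicate 1, and its log2 fold change was 0.38 with the library-group term.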

How the data were processed

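The files deposited by the authors hold raw, unnormalized counts per Ensembl gene, unstranded and by strand, in the layout of STAR gene counts. The submitters' processing notes name HISAT2, StringTie, DESeq2 1.30.1 and mm10, and the annotation version is not given in the sources used here. Reverse-stranded counts were used, and reads mapping to several places, to several genes or to no gene were left out. Symbols, positions and exon lengths came from GENCODE M21, matched by identifier without version, and promoters and microRNAs from RefSeq (GRCm38.p6).

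Genes that reached 10 counts in 3 or more libraries entered edgeR 4.0.16 (R 4.3.3, TMM, quasi-likelihood test, Benjamini-Hochberg over 15673 genes, threshold 0.05), with region as the only term. Standard errors are the log2 fold change over the square root of F. The fits were tested on simulated data. All 33 members are accounted for, with every library's value where a member was called or the regions did not overlap. Members and lists were chosen with earlier results of these data known. Alternatives were DESeq2 1.42.0, RLE, library size only, limma-voom (limma 3.58.1), other filters, unstranded counts, a replicate block, the library-group term, a log2 fold change of at least 1 and leaving out libraries.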

Additional observations from a re-analysis of the deposited data

How the results depend on the processing

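The number of imprinted genes called, 6, became 12 under DESeq2 and 11 when low counts were not filtered, and 5 to 21 without 1 replicate, the 21 without posterior replicate 1. Those higher in the posterior palate, 5, became 11 with DESeq2, 10 with no filter, 8 with the library-group term and 8 without posterior replicates 2 and 3, and 4 to 17 without 1 replicate. Those higher in the anterior palate were 1 to 4 without 1 replicate. Over all genes tested the 1169 calls became 1978 with DESeq2 and 2162 with no filter, and 528 to 7309 without 1 replicate (7309 without posterior replicate 1). The median log2 fold change of the members was 0.24 to 0.42 without 1 replicate. The 6 genes were called by DESeq2 and by limma-voom.

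Same-numbered libraries of the regions did not deviate together (correlations -0.053, 0.045 and 0.036). The labels do not say whether the numbers pair samples by embryo or litter. With 3 libraries a region and a split among the posterior ones, these correlations cannot decide it. With the replicate block 5 imprinted genes and 829 genes in all were called, Ndn being lost.

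Signs turned only for members that were not called. With the library-group term and without posterior replicates 2 and 3, the log2 fold changes were 0.24 and 0.24 for Kcnq1ot1, -0.066 and -0.070 for Usp29, -0.26 and -0.27 for Peg10, -0.23 and -0.24 for Sgce, -0.016 and -0.020 for Ppp1r9a, -0.37 and -0.37 for Pon3, -0.035 and -0.039 for Grb10, -0.053 and -0.057 for Impact, -0.27 and -0.28 for Slc38a4, and 0.25 and 0.24 for Peg13. Meg3 was at -0.20 with limma-voom and -0.24 with the replicate block, Sgce at -0.00047 and Slc22a3 at -0.028 by library size only, and Gnas at 0.55 with unstranded counts. Without 1 replicate the ranges were -0.94 to 0.56 for Meg3, -0.049 to 0.18 for Peg10, -0.073 to 0.17 for Sgce, -0.31 to 0.029 for Snrpn, -0.18 to 0.40 for Slc22a3, -0.092 to 0.26 for Nnat, -0.10 to 0.26 for Slc38a4 and -0.14 to 0.089 for Peg13. The causes were not tested.

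Depth limits Slc22a3, Phlda2, Nap1l5 and Rtl1 most. With 3 libraries a region and 2 posterior libraries apart from the rest, members that were not called are not shown to be equal between the regions.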
